A study of Mus musculus with 4 samples.

Results

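Hmga2 and 5 genes that share the let-7 growth axis with it (Hmga1, Lin28b, Igf2bp2, Igf2bp3 and Arid3a) were followed in single bone marrow cells of mice with intact or floxed STAT5 genes. These 6 genes were taken by symbol from the 31053 genes of the deposited matrices, and all 6 were found. They were chosen by a measured value, the lower summed Hmga2 level in STAT5 knockout cells of these libraries, so its difference between the genotypes is described here and not tested.

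The study profiled sorted cells by droplet single-cell RNA sequencing with 3′ chemistry, in 4 libraries, 1 per group. KLS cells are sorted marrow cells that carry c-Kit and Sca-1 and lack lineage markers, a mixture of hematopoietic stem cells and early progenitors, here from femurs and tibias of mice aged 8 to 12 weeks. The KLS control library is labelled Vav1-Cre/+STAT5ab+/+ and the KLS STAT5 KO library Vav1-Cre/+STAT5abfl/fl, so both genotypes carry Vav1-Cre, a recombinase whose promoter is on in the blood lineage. The labels name 4 mice for the KLS sort without saying whether that is the number in all or per genotype, and cells of several mice were pooled with no mark of the single animal. The MSC libraries hold sorted marrow stromal cells from mice of the same genotypes, aged 6 to 8 weeks. With 1 library per group the differences between genotypes have no replicate check, and every interval given is a 95% interval that covers counting error only.

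LIN28B is an RNA-binding protein that blocks the maturation of the let-7 microRNAs, and let-7 in turn represses growth-promoting messages, Lin28b among them. HMGA2, a chromatin protein that bends AT-rich DNA, is among the best known let-7 targets. In blood the axis is known as a fetal program: Lin28b is high in fetal stem cells, let-7 rises towards adulthood, and HMGA2 promotes self-renewal of fetal and young stem cells. HMGA1 is the close relative of HMGA2, IGF2BP2 and IGF2BP3 are RNA-binding proteins that stabilize or guide growth messages such as that of IGF2, and ARID3A is an AT-rich DNA-binding factor that favours fetal-type B lymphopoiesis.

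The let-7 sequences are shown because their seed, bases 2 to 8, defines the sites that tie the 6 genes together. RefSeq (GRCm38.p6) lists 13 let-7 family loci with 11 mature names, and 10 of these names carry the seed GAGGUAG. Representatives of the family, and the 1 member with another seed, are printed 5′ to 3′ with the seed in capitals.
let-7a: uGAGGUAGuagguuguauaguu
let-7b: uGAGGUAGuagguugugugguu
let-7d: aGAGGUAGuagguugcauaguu
let-7e: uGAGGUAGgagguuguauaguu
let-7g: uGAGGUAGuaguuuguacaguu
miR-98: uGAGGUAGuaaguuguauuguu
let-7j: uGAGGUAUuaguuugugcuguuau

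The complement of that seed, CTACCTC, was searched on the transcribed strand of 1 3′ UTR per gene (GENCODE M21, GRCm38). It occurred in 1692 of 20731 UTRs, which is 8.16% of them, and 2.75% held the longer match in which an A follows. Each of the 6 genes held the match, and the genes were chosen as let-7 axis genes, so this count is a description. Hmga2 and Lin28b held 4 matches each, a number reached by 11 genes, Arid3a held 2, and Hmga1, Igf2bp2 and Igf2bp3 held 1 each. The 4 matches of Hmga2 and the first of each other gene follow, with the match in capitals and, where present, the A after it. All lie in exons, in the 3′ UTR. The Hmga2 lines run from the first match after the stop codon, at chr10:120364224-120364245 on the minus strand, to the last, at chr10:120361691-120361712. The first Lin28b match lies at chr10:45381022-45381043 (minus strand), that of Igf2bp2 at chr16:22059473-22059494 (minus), that of Igf2bp3 at chr6:49086787-49086808 (minus), that of Arid3a at chr10:79953896-79953917 (plus) and that of Hmga1 at chr17:27563278-27563299 (plus).
Hmga2 site 1: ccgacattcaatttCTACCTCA
Hmga2 site 2: cccactcctcaataCTACCTCt
Hmga2 site 3: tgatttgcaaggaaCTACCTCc
Hmga2 site 4: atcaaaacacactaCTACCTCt
Lin28b site 1: cccgggcgggaagtCTACCTCA
Igf2bp2 site 1: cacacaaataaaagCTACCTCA
Igf2bp3 site 1: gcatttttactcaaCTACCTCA
Arid3a site 1: aggcaagtttctttCTACCTCA
Hmga1 site 1: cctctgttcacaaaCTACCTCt

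Hmga1 is the only gene of the 6 with no match followed by an A. A match describes letters and is not evidence that let-7 acts there in these cells. The STAT consensus TTCNNNGAA, read on both strands, was found in 8.30% of 32851 RefSeq promoter windows (250 bases before to 50 after the start) and in none of the windows of Hmga2, Hmga1, Lin28b, Igf2bp2 and Igf2bp3. Arid3a had no window in that set and was not searched. The search says only that these letters are absent from the windows read. Hmga2 spans chr10:120361275-120476469 on the minus strand.

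The libraries differed before any gene was compared. The control KLS library kept 3085 cells with a median of 15136 UMIs (unique molecular identifiers, each counting 1 captured RNA molecule), and the STAT5 KO KLS library kept 6726 cells with a median of 10085. Of their barcodes, 393 in the control and 295 in the STAT5 KO library also occurred in another library, and the 388 and 281 that held more UMIs elsewhere were left out. The sort markers were present: Kit stood at 210 counts per 1000000 UMIs (CPM) in control cells and at 178 in STAT5 KO cells, Ly6a, which encodes Sca-1, at 65.2 and 48.8 CPM, and Ptprc, which encodes CD45, at 153 and 154 CPM. The 6 stromal marker genes summed to 1.29 and 1.60 CPM, and 7 genes of mature lineages to 14.6 and 21.7 CPM. Control cells had Stat5a at 68.5 CPM and STAT5 KO cells at 6.74 CPM, and Stat5b at 60.8 and 4.49 CPM, so the labels matched the targeted genes.

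Hmga2 was clearly present in control KLS cells and stood far lower in STAT5 KO cells. The control library held 2684 Hmga2 UMIs, 52.5 CPM (50.5 to 54.5), and the STAT5 KO library 1390, 18.2 CPM (17.3 to 19.2). The intervals did not overlap, and the STAT5 KO level was 34.7% of control (32.5 to 37.0), a log2 ratio of -1.53 (-1.62 to -1.43). Among the 12071 genes that reached 100 UMIs in the KLS libraries together, 5.15% were lower by over 1.5-fold and 2.05% higher, and the median log2 ratio was -0.01. Hmga2 held place 40 from the lowest ratio, between Gm8797 at -1.56 and Gm19331 at -1.51. It was picked for this contrast, so nothing is read from that place. Fewer cells that hold Hmga2 and less Hmga2 RNA per cell both lower a summed level.

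Hmga1 was lower by less. It held 2795 UMIs and 54.7 CPM in control against 3020 UMIs and 39.5 CPM in STAT5 KO cells, a log2 ratio of -0.47 (-0.54 to -0.39), which lies beyond counting error and short of 1.5-fold. Hmga1b, a nearly identical copy of Hmga1 at chr11:120762794-120764419, was at 16.1 CPM in control cells against 7.97 CPM in STAT5 KO cells (log2 ratio -1.02). Reads that fit both copies could be assigned to either, so the split between Hmga1 and Hmga1b is uncertain. Both entries were lower in the STAT5 KO library.

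**Figure D1:**
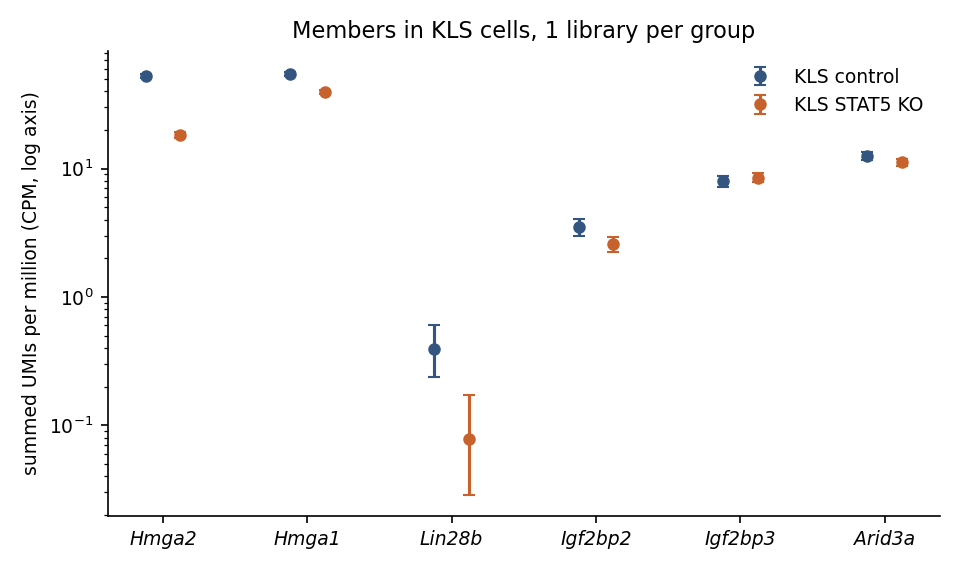
Summed CPM of each of the 6 genes in the control and STAT5 KO KLS libraries on a log axis; points are the 2 libraries and bars 95% Poisson intervals. Hmga2 lies at 52.5 and 18.2 CPM with intervals far apart, Igf2bp3 at 7.94 and 8.51 with intervals that overlap, and Lin28b under 1 CPM in both.

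Lin28b, the upstream regulator, was close to the limit of detection in these adult cells. It had 20 UMIs in the control library (0.39 CPM) and 6 in the STAT5 KO library (0.08 CPM), with a log2 ratio of -2.32 and a wide interval of -3.92 to -0.95. With so few UMIs it fell under the minimum of 100 and was not among the genes counted. Of the 20 control UMIs, 8 lay in cells of no gate and 6 in the stem gate, both described below. The STAT5 KO cells had 2 and 0 there. In the stem gate the interval of the ratio reached 1.61, so the counts of that gate show no difference beyond counting error. In cells of no gate the log2 ratio was -2.39, with an interval just below 0 (-5.66 to -0.06). Its sister gene Lin28a, which also blocks let-7, had 0 and 1 UMIs.

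The RNA-binding targets and Arid3a differed less between the libraries. Igf2bp2 was at 3.50 CPM (179 UMIs) in control cells against 2.57 CPM (196 UMIs) in STAT5 KO cells, a log2 ratio of -0.45 (-0.75 to -0.15). Igf2bp3 was at 7.94 CPM (406 UMIs) and 8.51 CPM (650 UMIs), with an interval of the log2 ratio that spans 0 (-0.08 to 0.28). Arid3a was at 12.6 CPM (643 UMIs) and 11.2 CPM (854 UMIs), a log2 ratio of -0.17 (-0.32 to -0.02). Igf2bp1, the third gene of the Igf2bp family, had 0 UMIs in both libraries. Of the 5 members with at least 100 UMIs, Hmga2 alone passed 1.5-fold, with Hmga1 counted without its copy Hmga1b. Hmga2 was chosen for that difference, and 5.15% of all genes tested were lower and 2.05% higher, so nothing is read from this count.

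Cells were also placed in lineage gates by the UMIs of textbook genes: a stem gate (a UMI of each of Hlf, Mecom and Procr), a lymphoid gate (2 or more UMIs of Dntt), a megakaryocyte gate (2 or more UMIs of Pf4), an erythroid gate (Klf1 and Gata1) and a myeloid gate (Mpo, Elane, Prtn3, Ctsg and Ms4a3 at 0.2% or more of UMIs), with cells of no gate and of several gates kept apart. The gate shares differed between the libraries: the myeloid gate held 181 control and 1036 STAT5 KO cells, the stem gate 356 and 264, and the lymphoid gate 926 and 2003. In the control library Hmga2 was highest in the lymphoid gate, at 67.8 CPM (63.8 to 72.0). It was at 48.6 CPM in the myeloid gate, 47.4 CPM in cells of no gate, 37.8 CPM in the stem gate, 25.8 CPM in the megakaryocyte gate and 7.75 CPM in the erythroid gate. Neighbours in that order differed beyond counting error except for the myeloid gate and the cells of no gate, whose log2 ratio had an interval of -0.20 to 0.27.

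In STAT5 KO cells the order was nearly the same at lower levels. Hmga2 was at 20.4 CPM in the lymphoid gate, 19.8 CPM in the myeloid gate, 18.4 CPM in the stem gate, 16.0 CPM in cells of no gate, 6.70 CPM in the megakaryocyte gate and 3.1 CPM in the erythroid gate. The lymphoid gate, highest by a clear margin in control cells, did not differ from the myeloid gate (-0.18 to 0.26) or the stem gate (-0.60 to 0.27) beyond counting error in STAT5 KO cells, and neither did the megakaryocyte and erythroid gates (-0.21 to 2.62). In every gate the STAT5 KO value was lower by over 1.5-fold, as it was in each of the 7 gates for 33 of the 12071 genes (0.273%).

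**Figure D2:**
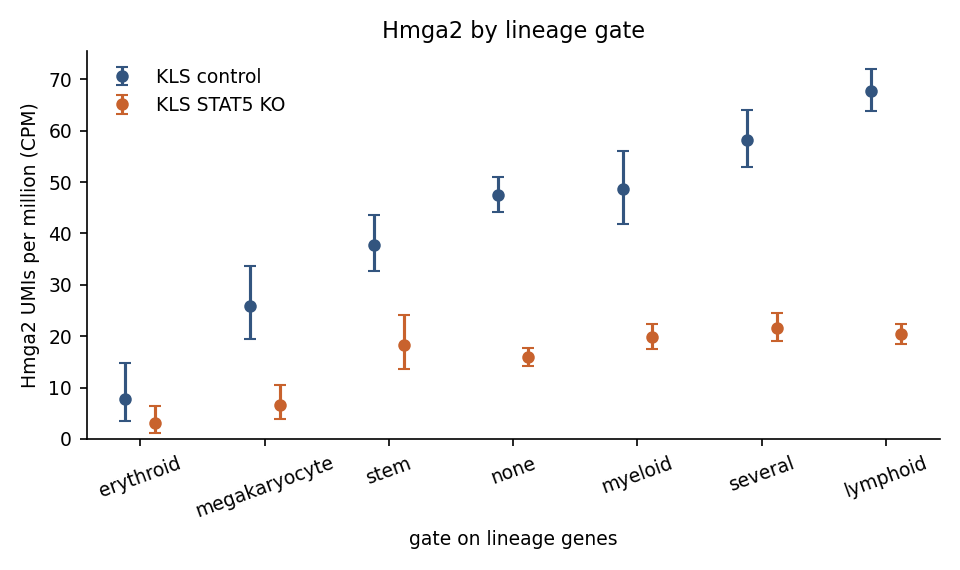
Hmga2 CPM in each lineage gate of the control and STAT5 KO KLS libraries, with 95% Poisson intervals, in order of the control level. Control values climb from 7.75 CPM in the erythroid gate to 67.8 CPM in the lymphoid gate, and STAT5 KO values run from 3.1 to 21.7 CPM.

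The gap was widest in the megakaryocyte gate, with a log2 ratio of -1.95 (-2.80 to -1.16) that rests on 55 and 18 UMIs, and in the lymphoid gate, at -1.74 (-1.89 to -1.58). It was narrowest in the stem gate, at -1.04 (-1.52 to -0.59), an interval apart from that of the lymphoid gate. The erythroid interval spanned 0 (9 and 7 UMIs). When the STAT5 KO cells were weighted to the gate shares of the control library, Hmga2 was at 18.0 CPM and the log2 ratio at -1.55, so it was as large with equal shares as without. When cells were first thinned to 4000 UMIs and then gated, the stem gate held 10 control and 13 STAT5 KO Hmga2 UMIs and its ratio turned to 0.31 (-0.99 to 1.66). With gates taken from all UMIs and cells then thinned, it was -0.73 (-1.50 to 0.01).

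The myeloid and megakaryocyte gates depended on how many marker UMIs were asked for. With the granule genes at 0.5% or more of UMIs, the myeloid gate held 42 control and 296 STAT5 KO cells, and Hmga2 was at 17.0 and 19.3 CPM (log2 ratio 0.18, -0.56 to 1.00). With 4 or more Pf4 UMIs the megakaryocyte gate held 9 and 15 Hmga2 UMIs and the ratio was -0.21 (-1.49 to 1.17). Mpo, Elane, Prtn3, Ctsg and Ms4a3 encode or accompany neutrophil granule proteins, so their share of a cell's UMIs tracks its place in myeloid differentiation. Over all cells, control Hmga2 was 69.4 CPM where that share was 0.2 to 0.5%, 43.3 CPM at 0.5 to 1% and 9.65 CPM (5 UMIs in 19 cells) at 1% or more. The STAT5 KO values for the same ranges were 22.8, 20.7 and 7.85 CPM, so the libraries were far apart at low granule content and their intervals overlapped in the highest range.

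**Figure D3:**
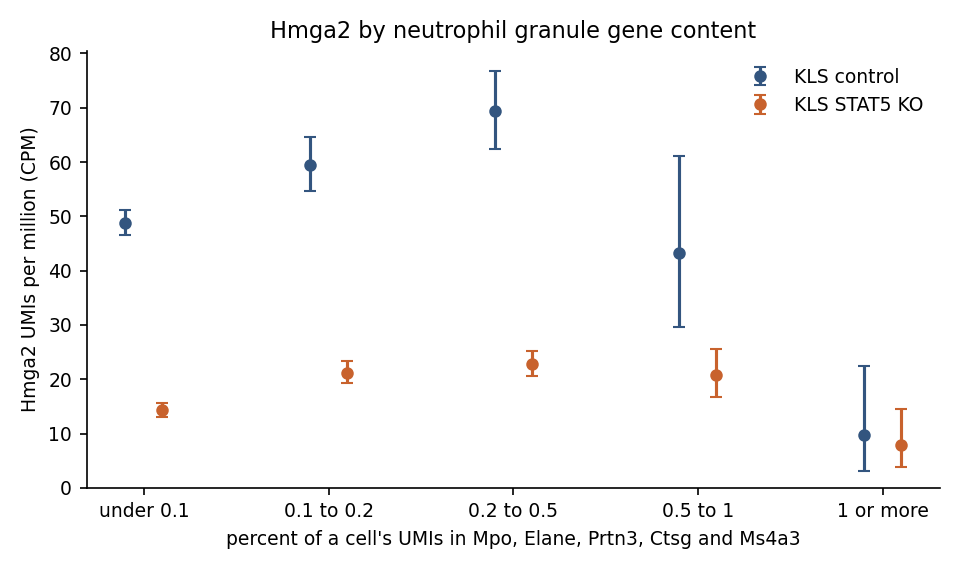
Hmga2 CPM by the percent of a cell's UMIs in 5 neutrophil granule genes, for both KLS libraries with 95% Poisson intervals. Control values reach 69.4 CPM at 0.2 to 0.5% and end at 9.65 CPM at 1% or more, where the STAT5 KO value is 7.85 CPM.

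Hmga1 had a flatter profile across the gates. Its control values ran from 45.4 CPM in the stem gate to 67.4 CPM in the lymphoid gate, and the erythroid gate, lowest for Hmga2, was at 55.1 CPM. The STAT5 KO values ran from 29.7 CPM in cells of no gate to 45.7 CPM in the myeloid gate. Its log2 ratio had an interval below 0 in 5 gates, among them the lymphoid gate (-0.66), the megakaryocyte gate (-0.65) and cells of no gate (-0.61). In the erythroid gate (-0.27) and in cells of several gates (-0.11) the interval spanned 0.

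Igf2bp2 had its highest value in the megakaryocyte gate of both libraries, at 11.7 CPM in control cells against 9.31 CPM in STAT5 KO cells. In the stem gate it had 29 UMIs in control cells (5.62 CPM) against 4 in STAT5 KO cells (1.47 CPM), a log2 ratio of -1.94 (-3.90 to -0.43), the only gate in which its interval lay below 0. Igf2bp3 went the other way in the megakaryocyte gate, with 8 UMIs (3.75 CPM) in control cells against 29 (10.8 CPM) in STAT5 KO cells, and thinned to 4000 UMIs before gating that ratio was -0.36 in place of 1.52. Arid3a was highest in the myeloid gate of both libraries, at 20.8 and 14.5 CPM (log2 ratio -0.52, -0.90 to -0.13). The remaining Arid3a intervals spanned 0 except in cells of several gates, at -0.50, which turned to 0.41 with thinned cells and to 0.09 with the higher gate thresholds.

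The share of cells with a Hmga2 UMI was compared after every cell was thinned to 4000 UMIs, which left out 24 control and 289 STAT5 KO cells. Of the thinned control cells, 16.2% (496 of 3061, Clopper-Pearson interval 14.9 to 17.6) held a Hmga2 UMI, against 6.26% (403 of 6437) of the STAT5 KO cells. Without thinning the shares were 41.5% and 14.1%. The erythroid gate, already lowest for Hmga2 in both libraries, gave 2.44% (0.06 to 12.9) and 0.877% (0.02 to 4.79) after thinning, 1 cell each. Its median depths before thinning were 22567 and 17655 UMIs. Both library shares lay above those of this gate, which was known to be low, so that is a description. Among thinned cells with a UMI, the mean was 1.24 UMIs in control and 1.14 in STAT5 KO cells. At 0.201 and 0.0712 Hmga2 UMIs per thinned cell, that mean lies near 1 in any case. It cannot tell fewer cells with Hmga2 from less Hmga2 RNA per cell.

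Hmga2 was spread less evenly over cells than Hmga1. After thinning, 0.588% of control cells held 3 or more Hmga2 UMIs where a Poisson spread of the same mean would give 0.116%, and the variance over the mean was 1.28. For Hmga1 it was 1.04, close to the 1 that counting alone would give. In STAT5 KO cells the same measure was 1.20 for Hmga2 and 1.02 for Hmga1, so the unevenness of Hmga2 remained at the lower level. Hmga1 UMIs were held by 19% of thinned control and 14.1% of thinned STAT5 KO cells.

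Depth differed between the libraries, so the Hmga2 ratio was also taken within ranges of UMIs per cell. It was -1.12 in cells of 4000 to 8000 UMIs, -1.62 at 8000 to 16000, -1.46 at 16000 to 32000 and -1.09 at 32000 or more. Every one of these intervals lay below 0. Under 4000 UMIs there were only 24 control cells with 1 Hmga2 UMI, which gives no usable ratio.

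STAT5 KO cells were then split by whether Stat5a or Stat5b UMIs were still found in them. Of the 6726 cells, 6272 held none, 225 held 1 and 229 held 2 or more. Their place among the gates was uneven: 26.5% of STAT5 KO cells in the stem gate held a Stat5a or Stat5b UMI, 19% in the megakaryocyte gate, 9.23% of cells in no gate and 1.20% in the lymphoid gate. In the control library 79.3% of all cells did. In cells with 2 or more such UMIs, summed Stat5a and Stat5b stood at 187 CPM in STAT5 KO and 176 CPM in control cells. Cells enter this class by those same UMIs, so the selection sets these levels and their likeness is not a result.

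Hmga2 was not measurably higher in the STAT5 KO cells with Stat5 UMIs than in those without. It was at 18.2 CPM in cells with none and 17.7 CPM (101 UMIs) in cells with 1 or more, a log2 ratio of -0.04 (-0.35 to 0.25) between them. Against all control cells, the cells with 1 or more were at -1.57 (-1.87 to -1.28). In that comparison 7.32% of 11238 genes were lower by over 1.5-fold and 6.89% higher, and in the comparison with STAT5 KO cells without a UMI 5.29% of 11408 were lower and 8.99% higher. The smaller classes did not follow one order: 25.3 CPM with 1 UMI (19.3 to 32.7) and 12.4 CPM with 2 or more (8.96 to 16.8). Those intervals lay above and below the 18.2 CPM of cells with none, so the pooled value averages unlike classes. Control cells were at 53.6, 58.6 and 50.3 CPM in the classes with 0, 1 and 2 or more.

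**Figure D4:**
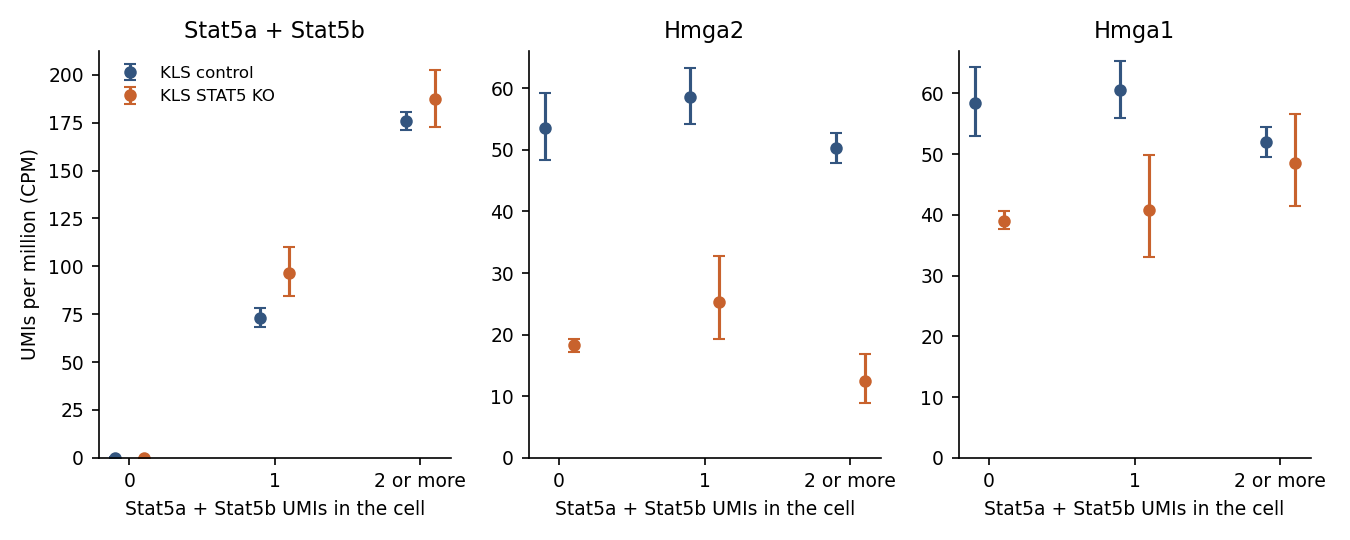
Summed Stat5a and Stat5b, Hmga2 and Hmga1 in CPM for KLS cells with 0, 1 and 2 or more Stat5a or Stat5b UMIs, with 95% Poisson intervals. With 2 or more, Stat5 is at 187 CPM in STAT5 KO and 176 CPM in control cells, levels set by the choice of cells. In that class Hmga2 is at 12.4 against 50.3 CPM, and Hmga1 at 48.5 against 51.9 CPM.

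Because the split was uneven over the gates, it was repeated within them. In cells of no gate, STAT5 KO Hmga2 was at 15.9 CPM without and 16.7 CPM with a Stat5 UMI. In the stem gate it was at 15.5 CPM (194 cells) and 27.7 CPM (18 UMIs in 70 cells), with an interval of the ratio that spanned equality, and control stem-gate cells were at 37.8 CPM. In the lymphoid gate only 24 STAT5 KO cells held a Stat5 UMI, with 6 Hmga2 UMIs between them (19.5 CPM, against 20.4 without). Why these cells held Stat5 UMIs was not tested.

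For Hmga1 the difference from Hmga2 in this split was not tested. The intervals of their ratios overlap for STAT5 KO cells with 1 or more Stat5 UMIs. In those with 2 or more, Hmga2 was lower and Hmga1 higher than in cells with none. STAT5 KO cells with 1 or more Stat5 UMIs held Hmga1 at 45.4 CPM against 39.1 CPM without (log2 ratio 0.22, 0.03 to 0.40). In cells of no gate the Hmga1 values were 42.7 and 28.1 CPM (0.61, 0.28 to 0.92), with control cells of no gate at 45.4 CPM. Igf2bp2 was at 5.33 CPM (18 UMIs) in cells with 2 or more Stat5 UMIs and 2.46 CPM in those with none (log2 ratio 1.11, 0.32 to 1.82). Igf2bp3 and Arid3a had intervals that spanned 0 in every class of the STAT5 KO split. Lin28b had 0 UMIs in the 454 STAT5 KO cells with a Stat5 UMI.

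Hmga2 differed between dividing and other cells by no more than counting error in either library. Cells with a UMI of Mki67 or Top2a, markers of dividing cells, made up 53.3% of thinned control and 70.0% of thinned STAT5 KO cells. Hmga2 was at 52.4 CPM in those and 47.8 CPM in the other control cells, and at 17.8 and 17.7 CPM in STAT5 KO cells. Hmga1 was equally flat, with log2 ratios of -0.03 and -0.01. Arid3a was lower in dividing cells of both libraries (-0.56 and -0.80), and Igf2bp3 in those of the STAT5 KO library (-0.54).

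Hmga2 was found in the same single cells as Hmga1, Igf2bp3 and Arid3a about as often as their separate shares give. In thinned control cells 90 held UMIs of both Hmga2 and Hmga1 where the product of the shares is 94.5, and in STAT5 KO cells 54 where it is 56.7. Igf2bp3 was found with Hmga2 in 18 control cells (product 17.8) and Arid3a in 23 (product 23.5). Igf2bp2 was found with Hmga2 in 6 control cells (product 7.62) and 2 STAT5 KO cells (product 4.88), and Lin28b in 2 control cells (product 1.13). With UMIs in so few cells, a weak tendency either way was not detectable at this depth.

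Likeness of pattern was measured as Pearson's r with Hmga2 over 12 classes (6 gates in each of the KLS libraries, on log2 of CPM with 1 added). The classes share libraries and depth and hold the genotype difference by which Hmga2 was chosen, so r is a description. Dpp4, which encodes a cell-surface peptidase, was most alike at 0.97, followed by Zbed3 at 0.96. Of the members, Hmga1 had r = 0.46, Arid3a 0.38, Igf2bp3 0.07 and Igf2bp2 -0.26. Within the 6 gates of a single library the order was another: in control cells Hmga1 had 0.23, Igf2bp3 0.40, Arid3a 0.46 and Igf2bp2 -0.62, and in STAT5 KO cells Hmga1 had -0.11, Igf2bp3 0.31, Arid3a 0.22 and Igf2bp2 -0.58. Neither Dpp4 nor Zbed3 was among the 10 genes most alike within either library.

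The other genes of the axis were read from lists, against 5.15% of all genes tested lower and 2.05% higher by over 1.5-fold. For lists this short, a count of 0 or 1 is near that background and says nothing particular about the list. Of 15 let-7 processing genes with at least 100 UMIs, none was past 1.5-fold in either direction, and the median log2 ratio was 0.10. Drosha and Dicer1, the nucleases that cut let-7 precursors, were at 0.31 and 0.15. Zcchc11, which adds uridines to let-7 precursors bound by LIN28, was at 0.10, and Dis3l2, which degrades them, at 0.03. The mature let-7 RNAs themselves are too short for this assay and were not measured.

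Of 23 let-7 target genes tested, 1 was lower (Hmga2, chosen for it) and 1 higher, with a median of 0.06, beside 5.15% and 2.05% of all genes. The higher gene was Ccnd1, which encodes cyclin D1: 22.6 CPM in control cells against 55.0 CPM in STAT5 KO cells (log2 ratio 1.28, 1.19 to 1.38). It was higher in the stem gate (22.7 against 51.5 CPM) and the lymphoid gate (27.9 against 64.2 CPM). Myc was at -0.07 and Igf1r at -0.09. Mycn was at -0.36 over all cells, but at 0.10 when reweighted to the gate shares of the control library and at 0.85 (0.67 to 1.03) in the stem gate, where control cells held 101 CPM and STAT5 KO cells 182 CPM. In the list of 13 HMG proteins Hmga2 was again the 1 gene past 1.5-fold, and the median was 0.18. That list did not hold Hmga1b, which was also lower by over 1.5-fold, at -1.02.

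**Figure D5:**
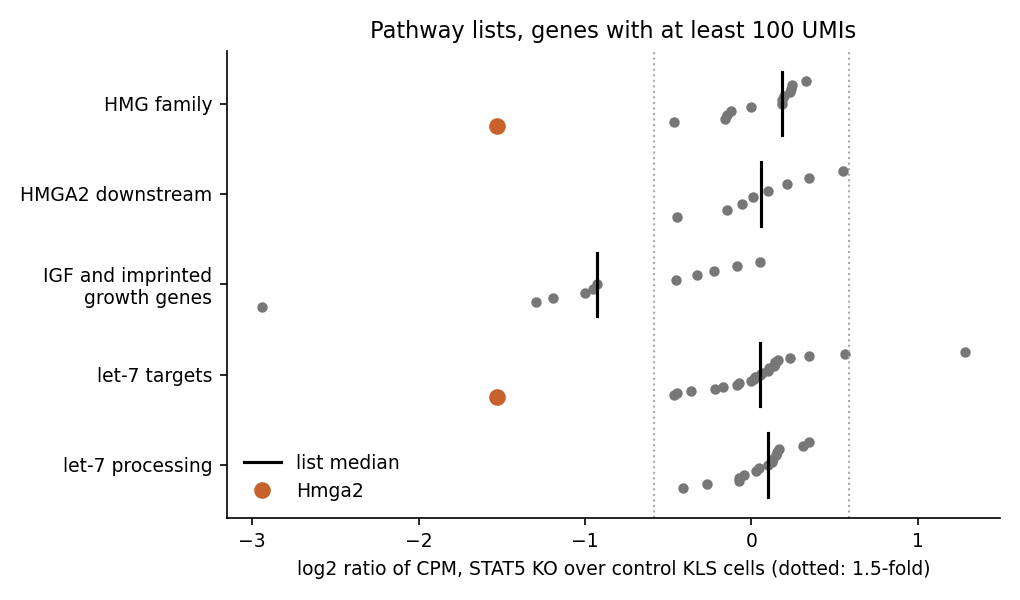
Log2 ratio of CPM, STAT5 KO over control KLS cells, for each gene with at least 100 UMIs in 5 lists; points are genes, black bars list medians and dotted lines 1.5-fold. Hmga2 stands apart at -1.53 in the let-7 target and HMG lists, and the list of IGF and imprinted growth genes has its median at -0.92.

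Genes of insulin-like growth factor signalling and imprinted growth control were the list with most genes lower. Of 11 tested, 6 were lower by over 1.5-fold (5.15% of all genes were) and none higher (2.05% of all genes), with a median of -0.92 against -0.01 for all genes. These were Meg3 at -2.94, Ndn at -1.29, Igf1 at -1.19, Phlda2 at -1.0, Cdkn1c at -0.95 and Dlk1 at -0.92. All 6 were low in level, from 11.8 CPM (Cdkn1c) to 1.19 CPM (Dlk1, 61 and 48 UMIs) in control cells. The share of all genes was not matched to that level. Meg3 is an imprinted noncoding RNA and Cdkn1c encodes the cell-cycle inhibitor p57, and both are known marks of quiescent stem cells. Reweighted to the gate shares of the control library, Cdkn1c was at -0.45, Ndn at -0.65 and Meg3 at -2.22. In the stem gate Cdkn1c was at 35.3 CPM in control cells against 33.1 CPM in STAT5 KO cells, and Ndn at 18.6 and 22.1 CPM. Meg3 stayed lower there, at 34.9 and 8.82 CPM. Igf2 and H19, the fetal growth pair, were near the detection limit with 2 and 10 UMIs in control and 0 and 2 in STAT5 KO cells.

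Of 8 tested genes named as downstream of HMGA2, none passed 1.5-fold, which with 5.15% of all genes lower and 2.05% higher is near the background, and their median was 0.06. Junb was at 0.01, Ccna2 at -0.05, Cdkn2c at 0.22 and Cdkn1a, which encodes p21, at 0.55.

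The MSC libraries gave 407 stromal cells with 3 or more UMIs of stromal genes in the control library and 248 in the library labelled MSC STAT5 KO. The targeted genes did not differ there beyond counting error: Stat5a was at 45.5 CPM in the control and 51.9 CPM in the library labelled STAT5 KO (log2 ratio 0.19, -0.36 to 0.73), and Stat5b at 55.9 and 49.9 CPM (-0.17, -0.70 to 0.36). These values compare 2 libraries by their labels, not stromal cells with and without Stat5 RNA. Hmga2 had 2 and 0 UMIs. A floor of 3 counts would be 1.95 CPM and 3.05 CPM in these libraries, so Hmga2 was at or under the floor in both and no fold is given. Igf2bp2 was at 24.7 and 24.4 CPM (38 and 24 UMIs), Hmga1 at 9.76 and 9.16 CPM, and Arid3a at 22.1 and 13.2 CPM with an interval of the log2 ratio from -1.79 to 0.22. Lin28b had 0 UMIs in both. For Hmga1, Igf2bp2, Igf2bp3 and Arid3a the interval of the log2 ratio between the stromal libraries spanned 0.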

How the data were processed

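Raw UMI counts per gene and cell barcode were deposited by the authors, with no normalization. Software version 3.1.0 stands in the file headers, and Cell Ranger with GRCm38/mm10 in the submitters' processing notes. The cell calling and strand rule are not given in the sources used here. The KLS libraries held 55138419 (control) and 82466835 (STAT5 KO) UMIs, the MSC libraries 1874023 and 1270763.

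A cell needed 200 genes or more, with mitochondrial UMIs at 10% or under. The highest Scrublet scores (scanpy 1.11.5; 0.8% of barcodes per 1000 barcodes) were left out, 112 in control and 451 in STAT5 KO KLS cells, since the automatic threshold marked 0 and 1. Barcodes with more UMIs in another library were left out. No correction for free RNA was made. Counts were summed over cells and scaled to CPM. Sums carry exact Poisson, shares Clopper-Pearson and ratios conditional binomial intervals, which cover counting error only. With 1 library per group no test was run, and a gene was counted as lower or higher past 1.5-fold with at least 100 UMIs over both libraries. The ratio step was tested on simulated data. Named genes are the 6 members, genes of 5 lists, the 10 genes most like Hmga2 and the neighbours of Hmga2 in rank. Members, lists and gates were chosen with earlier results of these data known. edgeR 4.0.16 was used for TMM factors only, on the deposited counts.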

Additional observations from a re-analysis of the deposited data

How the results depend on the processing

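No paired analysis was possible because each group has 1 library. The log2 ratio of Hmga2 between the KLS libraries lay between -1.62 and -1.09 over 12 alternatives and was moved beyond its counting interval only in cells of 4000 to 8000 UMIs (-1.12) and of 32000 or more (-1.09), ranges added after the data were seen. It was -1.51 with TMM factors. Thinned to 4000 UMIs before the split, Hmga2 in STAT5 KO cells with a Stat5a or Stat5b UMI was at 0.30 (log2) over those with none and at -1.21 over all control cells, and the cause was not tested. The share of cells with a Hmga2 UMI differed by -5.68 percentage points at 2000 UMIs per cell and -17.2 at 8000, against -9.94 at 4000, as a deeper draw finds more UMIs. With at least 20 UMIs 1128 genes were lower and 537 higher by over 1.5-fold, and with a pseudocount of 10 CPM 56 and 41, against 622 and 248. The interval of Hmga2 lay below 0 in 4 to 6 of the 7 gates.

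Thinned to 4000 UMIs before gating, the ratio turned for Hmga2 in the stem gate (0.31), Igf2bp3 in the megakaryocyte gate (-0.36) and Arid3a in cells of several gates (0.41), where fewer UMIs are left. With gate thresholds of 4 UMIs and 0.5% it turned for Hmga2 in the myeloid gate (0.18) and Arid3a in cells of several gates (0.091), with other cells in each gate. The depth limits Lin28b most: 26 UMIs in 9811 cells allow no order of the gates.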

Other observations

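Cdkn2a, the locus of the senescence-linked inhibitor p16 and of p19ARF, which HMGA2 is known to repress in young neural stem cells, had 0 UMIs in the 3085 control KLS cells and 36 UMIs in 24 of the 6726 STAT5 KO cells. The STAT5 KO level was 8.03 times a floor of 3 counts in the control library, which is not a lower bound. The lower 95% limit of the ratio from the counts of both libraries was 6.20. That limit treats UMIs as independent, though up to 7 lay in 1 cell. Of the 36 UMIs, 24 were in the 454 STAT5 KO cells with a Stat5a or Stat5b UMI (4.20 CPM) and 12 in the 6272 without (0.17 CPM), and 29 were in cells of no gate. Hmga2 stood at 17.7 and 18.2 CPM in the same classes. Cdkn2b, its neighbour, had 0 UMIs in both libraries. With 1 library per genotype, mice and preparations cannot be told apart from the genotype.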
